A study of Mus musculus with 21 samples.

Results

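A set of 10 genes that mark blood-derived myeloid cells and the macrophages at the borders of the brain were followed in bulk RNA sequencing of the mouse ventral pons after the facial nerve was cut: Mrc1, Cd163, Lyve1, F13a1, Ms4a7, Ly6c2, Ccr2, S100a8, S100a9 and Pf4. They were chosen by symbol from the 45664 gene rows of the count table, and all 10 were present. The tissue block holds the facial nucleus, whose motor neurons send their axons into the cut nerve, with parts of the neighbouring reticular and spinal trigeminal nuclei. All animals were C57BL/6 mice of the line CX3CR1GFP/wt, in which 1 copy of the fractalkine receptor gene is replaced by a green fluorescent protein, and this holds for the controls as well. The 7 groups of 3 libraries were the left pons of unoperated mice at 8 weeks of age (day 0), and the right (lesion) and left (contralateral) pons at days 7, 14 and 30 after axotomy of the right facial nerve at the stylomastoid foramen at 8 weeks, when the mice were 9, 10 and 12 weeks old. No group received a sham operation, so the contralateral side carries any effect of surgery on the whole animal. The labels do not say that the libraries of a group came from separate animals, so the p-values measure only the spread between these libraries.

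Border macrophages live in the meninges, in the spaces around vessels and in the choroid plexus, and are set apart from microglia by scavenger and endocytic receptors. Circulating classical monocytes carry Ly6C and the chemokine receptor CCR2, which lets them follow CCL2 and CCL7 out of the bone marrow and into tissue. Neutrophils store the S100A8 and S100A9 proteins in large amounts. After facial nerve axotomy the blood-brain barrier of the facial nucleus is known to stay largely closed, and the study's title concerns how microglia renew themselves. The markers bear on whether transcripts of other myeloid cells appeared in the same tissue.

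The libraries held 17358868 to 41448945 counts, with the highest totals at day 0. Mitochondrial transcripts made up 2.81% to 7.29% of the counts and were highest at day 30. The lane number in the column names changed with the day, except that day 0 and day 7 carry the same one. Some day 0 and day 7 names also repeat an index sequence under that lane number. The names therefore do not show that day 0 and day 7 were sequenced together. Sequencing run, lane, age and day cannot be told apart, whereas both sides of a day carried the same lane number. The day 30 columns of the count table carry the letter of the other side, a swap that the sample descriptions report. It was corrected here as they say, and the direction of each day 30 result rests on it. A pair of libraries stood apart in transcripts of neighbouring tissue or blood: day 7 lesion replicate 3 held 4657 CPM over 9 choroid plexus genes against at most 986 in any other library, and day 0 replicate 3 held 54.0 CPM over 7 erythrocyte genes against at most 13.3. Levels are given in CPM, counts scaled to a fixed library total, after the TMM method had evened out differences in composition. The library pairs correlated at 0.974 to 0.989 (Pearson's r of log2 CPM over genes).

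One of the markers has a near-identical neighbour, which limits how firmly its short reads can be assigned. Ly6c2 (chr15:75108158-75111970, GRCm38, minus strand) and Ly6c1, which endothelial cells express, have coding sequences of 393 bases with 384 identical positions (97.7%) and a longest identical run of 188 bases. The first 150 coding bases from the GENCODE transcripts show where the 2 genes can be told apart, with the 6 differing bases in capitals.
Ly6c2: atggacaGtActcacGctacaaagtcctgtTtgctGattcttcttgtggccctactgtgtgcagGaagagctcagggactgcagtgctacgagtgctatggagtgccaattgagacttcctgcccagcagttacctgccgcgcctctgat
Ly6c1: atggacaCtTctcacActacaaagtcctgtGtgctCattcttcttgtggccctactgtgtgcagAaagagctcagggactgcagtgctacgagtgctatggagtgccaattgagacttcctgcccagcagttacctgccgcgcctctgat
Of all 50-base stretches of the Ly6c2 transcripts, which match the read length, 14.5% also occur in other genes, chiefly Ly6c1. Ly6c1 itself lay at 33.7 CPM on average, far above Ly6c2 at 1.46 CPM. Its highest group means were the day 30 contralateral (38.6 ± 3.03 CPM) and lesion (36.1 ± 3.56 CPM) sides, against 33.8 ± 1.31 CPM at day 0, and Ly6c2 group means were highest in the same 2 groups. Single libraries did not all follow this order. Ly6c2 was highest in day 7 contralateral replicate 1 (3.90 CPM), in a group where Ly6c1 reached at most 33.0 CPM. Day 30 contralateral replicate 1 held 0.915 CPM of Ly6c2, in a group where Ly6c1 was at least 35.5 CPM. The day 30 differences of Ly6c1 from day 0 were 0.19 ± 0.09 and 0.09 ± 0.09 on the log2 scale (edgeR adjusted p = 0.14 and 0.49). The part of Ly6c1 reads in the Ly6c2 counts was not tested. For Ccr2 the share was 1.91%. The other 8 markers shared less than 0.5% of their 50-base stretches. F13a1 overlaps the predicted gene Gm30489 on the opposite strand, and whether reads were counted by strand is not given in the sources used here.

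All 10 markers were scarce, and all passed the filter on low counts. Their mean level over the 21 libraries ran from 0.429 CPM (S100a8) to 5.67 CPM (F13a1), while the median of the 22294 genes tested was 7.78 CPM. Per kilobase of gene length the order from high to low was Pf4 (1.49 CPM per kb), F13a1 (1.44), S100a9 (1.36), Lyve1 (1.10), Cd163 (0.937), Mrc1 (0.827), S100a8 (0.618), Ly6c2 (0.533), Ms4a7 (0.117) and Ccr2 (0.0863). The ranges of neighbouring genes over the libraries overlapped at every step of this order. Ly6c2 varied most, 13.4-fold between its lowest and highest library, and Mrc1 least at 2.00-fold. The biological coefficient of variation in the fit was 0.586 for Ly6c2, between 0.134 and 0.304 for the other 9, and 0.0991 at the median of all genes.

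The border macrophage receptors differed between the sides by no more than the spread between libraries. Fewer cells of a type and less RNA per cell cannot be told apart in such bulk samples. Mrc1 encodes the mannose receptor CD206. Its levels were 5.99, 4.99 and 6.27 CPM at day 0, and its group means lay between 4.57 ± 0.445 (SD, n = 3; day 14 lesion) and 5.75 ± 0.672 CPM (day 0). All 6 operated groups overlapped with day 0. The log2 difference of lesion minus contralateral was 0.01 ± 0.21 (SE) at day 7, -0.27 ± 0.21 at day 14 and 0.03 ± 0.21 at day 30. The 95% intervals of these differences reached from -0.69 at the lowest to 0.45 at the highest.

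Cd163 encodes the scavenger receptor that clears haemoglobin bound to haptoglobin. Its group means lay between 3.62 ± 0.839 CPM at day 7 on the lesion side and 4.79 ± 1.84 CPM at day 14 on the contralateral side. Single libraries ranged from 2.69 to 6.67 CPM with overlapping groups throughout. The lesion minus contralateral difference was -0.18 ± 0.28, -0.21 ± 0.27 and -0.04 ± 0.27 on the log2 scale at days 7, 14 and 30.

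F13a1 encodes the A subunit of coagulation factor XIII, which cross-links fibrin and is made by macrophages. At day 30 the contralateral libraries held 5.92, 6.02 and 5.97 CPM and the lesion libraries 7.07, 6.45 and 5.49 CPM. The lesion values lay on both sides of the narrow contralateral range, and the log2 difference was 0.09 ± 0.21. At day 7 it was -0.27 ± 0.22 and at day 14 it was 0.03 ± 0.22.

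Ms4a7 encodes a tetraspan membrane protein that is found in border macrophages and is low in resident microglia. It rested on 3 to 27 counts per library. Its lowest group was the day 14 lesion side at 0.325 ± 0.154 CPM, below all 3 day 0 libraries (0.524, 0.539 and 0.696 CPM). The day 14 contralateral side, at 0.422 ± 0.0692 CPM, also lay wholly below day 0 (-0.47 ± 0.35, edgeR adjusted p = 0.42). The log2 difference of the lesion side from day 0 was -0.79 ± 0.36 (edgeR adjusted p = 0.14), which does not pass.

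Lyve1 encodes a hyaluronan receptor of lymphatic vessels and of a subset of border macrophages. Day 0 libraries held 1.85, 1.97 and 2.50 CPM, and the contralateral libraries at day 30 held 3.23, 2.81 and 2.96 CPM. The day 30 lesion libraries held 3.84, 3.82 and 3.21 CPM. Both day 30 sides and the day 7 contralateral side lay wholly above day 0. None of these differences passed the test: the largest, day 30 lesion against day 0, was 0.78 ± 0.32 (log2; edgeR adjusted p = 0.085). It passed when only the 2 groups compared entered the fit (0.79 ± 0.17, adjusted p = 0.0052), and over the 13 alternatives the adjusted p ranged from 0.0052 to 0.21.

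At day 14, Lyve1 differed widely between library numbers, and in numbers 2 and 3 also between sides. Number 1 held 1.08 CPM on the contralateral and 1.22 CPM on the lesion side, the lowest values of all 21 libraries, while numbers 2 and 3 held 4.05 and 4.34 CPM contralaterally and 2.05 and 2.90 CPM on the lesion side. The lesion minus contralateral difference was -0.59 ± 0.34 (edgeR adjusted p = 0.37). Without contralateral replicate 1 it was -1 ± 0.23 (adjusted p = 0.016), and the contralateral difference from day 0 was 0.99 ± 0.22 (adjusted p = 0.0032). Number 1 was also the lowest at day 14 on both sides in meningeal fibroblast transcripts, described further on.

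**Figure D1:**
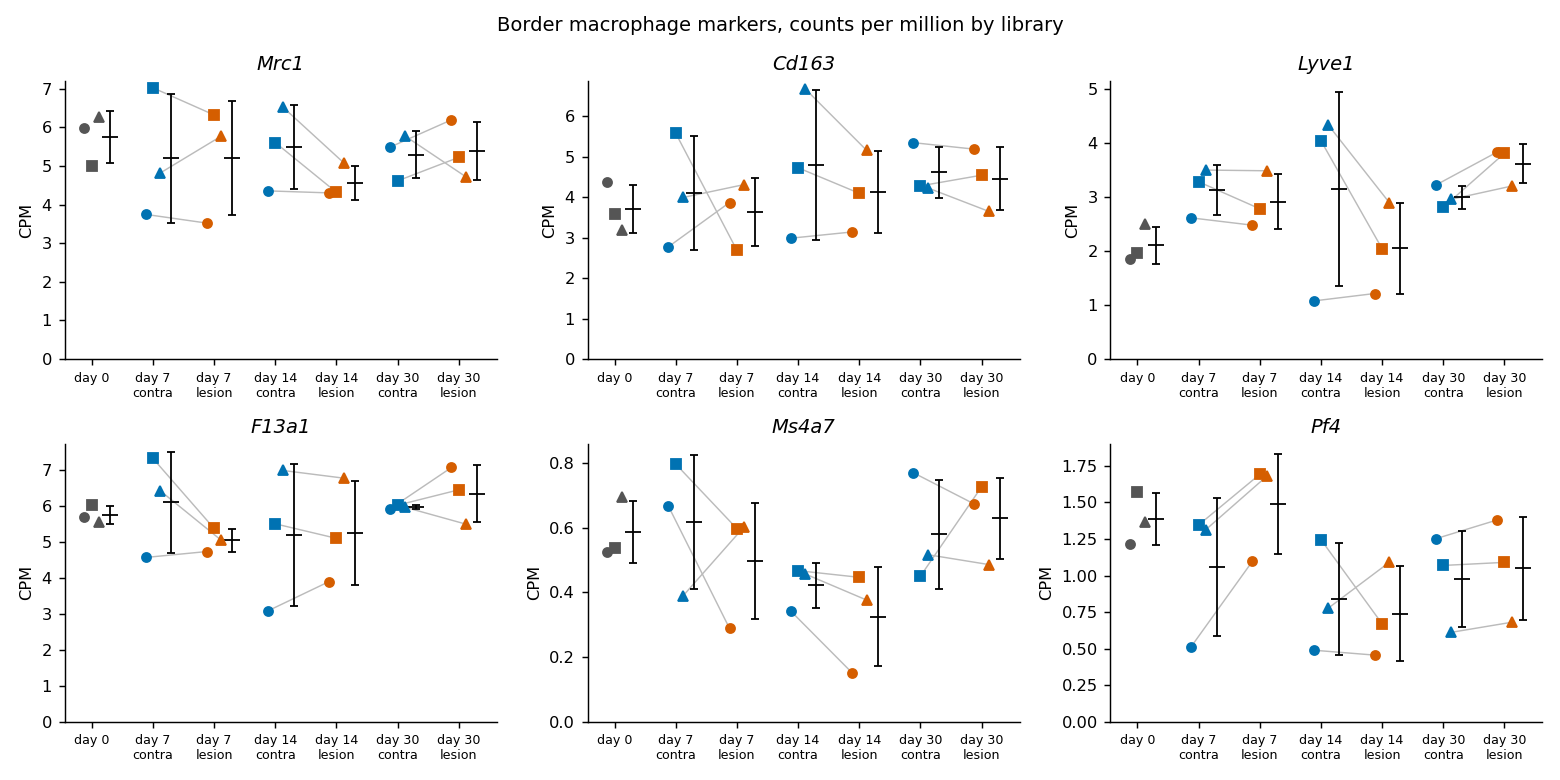
Level of 6 border macrophage and platelet-associated markers (vertical axis, CPM, starting at 0) in 7 groups of 3 libraries (horizontal axis). Grey is day 0, blue contralateral, orange lesion. Circles, squares and triangles are replicate numbers 1, 2 and 3, grey lines join the sides of a number, and black bars are the mean ± SD. Lyve1 at day 14 spans 1.08 to 4.34 CPM, with number 1 lowest on both sides.

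Pf4 encodes platelet factor 4, a chemokine stored in platelets and also transcribed by border macrophages. It was higher on the lesion side in all 3 numbers at day 7 (1.10 against 0.513, 1.69 against 1.35 and 1.68 against 1.31 CPM), but the groups overlapped and the log2 difference of 0.50 ± 0.36 did not pass (edgeR adjusted p = 0.94). At day 14 the lesion libraries held 0.456, 0.670 and 1.09 CPM, all below the day 0 libraries at 1.22, 1.57 and 1.37 CPM. This difference was -0.87 ± 0.34 (adjusted p = 0.085 with edgeR). It passed with no filter on low counts (-0.86 ± 0.29, adjusted p = 0.038) and without lesion replicate 3 (-1.26 ± 0.40, adjusted p = 0.036). The contralateral side differed from day 0 by -0.73 ± 0.35 in the same direction (adjusted p = 0.17). The summed level of 10 platelet and megakaryocyte genes was 8.30 to 11.4 CPM in the day 14 lesion libraries, 6.96 to 7.86 CPM on the contralateral side and 7.87 to 9.11 CPM at day 0. Itga2b (mean 3.52 CPM) and Gp1bb (3.33 CPM) made up most of it. Ppbp, a platelet chemokine, had 9 counts in all 21 libraries together and was at 0 in 15 of them. The part of platelets in the Pf4 level was not tested.

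Ccr2, the receptor for CCL2 and CCL7, was the marker with the most regular difference between sides, at very low counts. At day 30 the lesion libraries held 30, 21 and 17 counts (1.01, 0.954 and 0.826 CPM) and the contralateral libraries 7, 2 and 10 (0.337, 0.113 and 0.470 CPM). The groups did not overlap, and the log2 difference was 1.55 ± 0.41 with a 95% interval of 0.71 to 2.40. Its p of 0.00085 became 0.067 after adjustment over all genes with edgeR, so it was not called. Over 13 alternatives the adjusted p ranged from 0.017 to 0.38 and 2 of them called it: no filter on low counts (0.017) and a fit of only the 2 groups compared (0.023).

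At days 7 and 14 the Ccr2 difference between sides was 0.45 ± 0.39 and 0.45 ± 0.43 (log2). The day 7 lesion libraries held 0.924, 0.697 and 0.776 CPM, just above the contralateral ones at 0.462, 0.598 and 0.681 CPM, and neither difference passed. Counted by replicate number, the lesion side was higher in 8 of 9 numbers, the exception being number 2 at day 14. Of all genes tested, 6.44% (1435) were higher on the lesion side in at least 8 of the 9. The mean of the 3 days' differences was 0.82 ± 0.24 with a 95% interval of 0.33 to 1.31 (edgeR adjusted p = 0.045). This comparison was added after the Ccr2 values had been seen, so its p is not independent of them. Of its 25 alternatives 8 called it, and the adjusted p ranged from 0.0076 to 0.13, with DESeq2 at 0.07. In that averaged comparison 1 of 10 markers was called, beside 4.69% of all genes.

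Against day 0, where libraries held 0.414, 0.234 and 0.438 CPM, Ccr2 was higher on the day 30 lesion side by 1.37 ± 0.36 (log2; 2.58-fold, edgeR adjusted p = 0.0064). That call was made under all 12 alternatives that could be fitted, with adjusted p from 0.0015 to 0.043. The day 7 lesion side was higher by 1.13 ± 0.38 (2.20-fold, adjusted p = 0.046), a call that 9 of 12 alternatives lost (adjusted p 0.030 to 0.17), among them leaving out any 1 of the 6 libraries compared. The contralateral side differed from day 0 by 0.69 ± 0.40, 0.06 ± 0.43 and -0.18 ± 0.45 at days 7, 14 and 30, none of which passed. The part that reads of other genes have in the Ccr2 counts was not tested.

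Ly6c2, the antigen of classical monocytes, differed widely between libraries of a group. At day 7 the contralateral libraries held 3.90, 1.30 and 0.292 CPM and the lesion libraries 0.577, 0.398 and 0.560 CPM. The lesion minus contralateral difference of -1.82 ± 0.83 (log2) did not pass (edgeR adjusted p = 0.66). At day 14 the order of means was opposite: lesion 0.759, 2.16 and 0.452 CPM against contralateral 0.538, 0.312 and 0.365 CPM, a difference of 1.48 ± 0.90 (adjusted p = 0.41). In each case a single high library carried the mean. The change of the lesion effect from day 7 to day 14, 3.30 ± 1.22, did not pass either (adjusted p = 0.82).

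At day 30 Ly6c2 held 3.84, 3.04 and 2.67 CPM in the lesion libraries and 0.915, 3.55 and 2.72 CPM contralaterally, against 0.524, 0.562 and 1.24 CPM at day 0. Contralateral replicate 1 thus lay within the day 0 range. The lesion side rose by 2.04 ± 0.65 over day 0 (log2; 4.12-fold, edgeR adjusted p = 0.036), and every lesion library lay above every day 0 library. The contralateral difference from day 0, 1.61 ± 0.68, did not pass (edgeR adjusted p = 0.13), and the sides differed by 0.44 ± 0.62 (adjusted p = 0.94). The call for the lesion side was made in 7 of 13 alternatives. It was lost without day 0 replicate 1 or 2 (adjusted p = 0.10 and 0.12), without any 1 of the 3 lesion libraries (0.061 to 0.10) and with no filter on low counts (0.054). Ly6c1 differed between the day 30 sides by -0.10 ± 0.09.

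**Figure D2:**
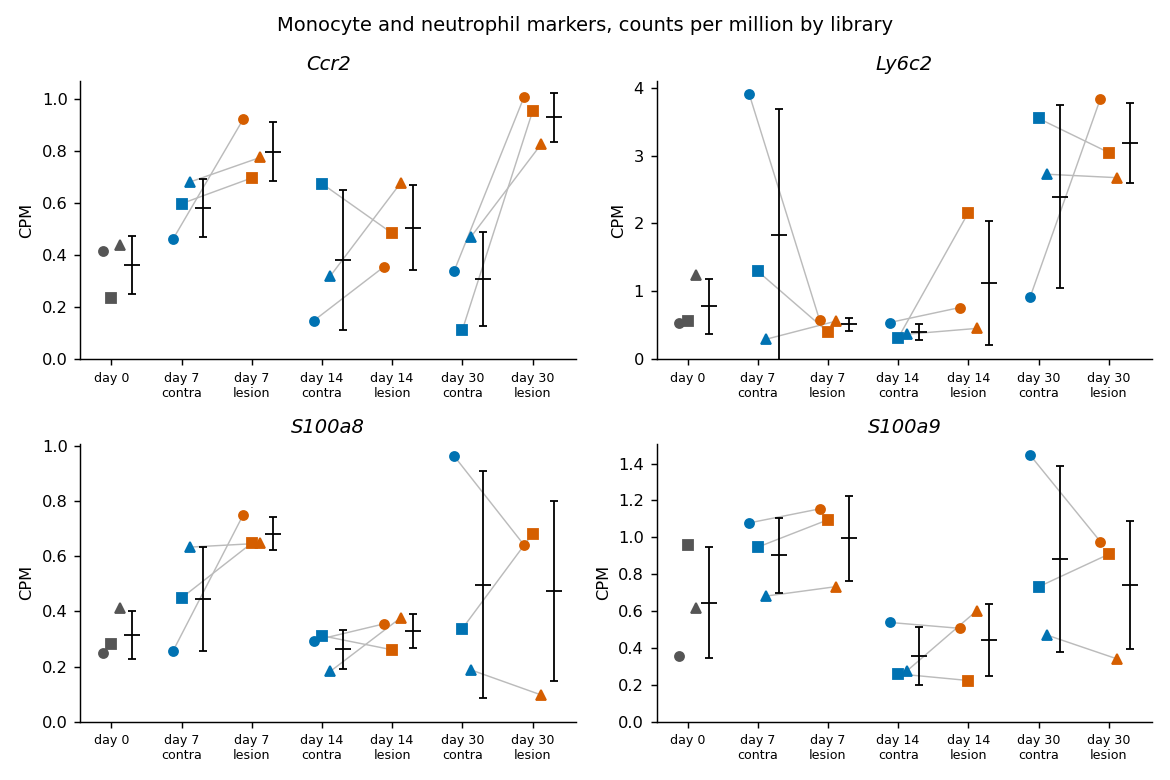
Level of 4 monocyte and neutrophil markers (vertical axis, CPM, starting at 0) in 7 groups of 3 libraries. Grey is day 0, blue contralateral, orange lesion. Circles, squares and triangles are replicate numbers 1, 2 and 3, grey lines join the sides of a number, and black bars are the mean ± SD, drawn down to 0 where the SD exceeds the mean. Ccr2 at day 30 lies between 0.826 and 1.01 CPM on the lesion side and between 0.113 and 0.470 CPM on the other, while Ly6c2 at day 7 spans 0.292 to 3.90 CPM on the contralateral side.

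S100a8 and S100a9, the subunits of calprotectin, were detected in every library at 2 to 20 and 5 to 41 counts. S100a8 at day 7 lay wholly above on the lesion side, with 0.750, 0.647 and 0.646 CPM against 0.257, 0.448 and 0.633 CPM, and the log2 difference was 0.59 ± 0.49 (edgeR adjusted p = 0.97). Its lesion values also lay above all day 0 libraries (0.248, 0.281 and 0.413 CPM), by 1.10 ± 0.47 (edgeR adjusted p = 0.13). S100a9 differed between the sides by 0.13 ± 0.42, 0.29 ± 0.54 and -0.22 ± 0.43 at days 7, 14 and 30. At day 30 number 3 was lowest for both genes on both sides. It held 0.188 and 0.0972 CPM of S100a8 and 0.470 and 0.340 CPM of S100a9 on the contralateral and lesion side. Number 1 held the highest values of the whole series on the contralateral side (0.963 and 1.45 CPM).

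Across the 21 libraries the log2 CPM of S100a8 and S100a9 had a Pearson's r of 0.71, and 0.66 after group means were removed. The genes lie close together on chromosome 3 in opposite orientation (S100a8 chr3:90668978-90670035, plus strand; S100a9 chr3:90692632-90695721, minus strand, GRCm38). Because they move together, the sequence before each start is shown, from RefSeq (GRCm38.p6), from 250 bases before the annotated start to 20 bases after it, with motif matches in capitals. The S100a8 stretch is chr3:90668821-90669090 and the S100a9 stretch chr3:90695702-90695971.
S100a8: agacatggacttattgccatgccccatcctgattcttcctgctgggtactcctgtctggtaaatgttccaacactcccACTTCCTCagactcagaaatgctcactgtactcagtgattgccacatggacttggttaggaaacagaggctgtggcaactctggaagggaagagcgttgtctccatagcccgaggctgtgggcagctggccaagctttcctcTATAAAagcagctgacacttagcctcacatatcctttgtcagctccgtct
S100a9: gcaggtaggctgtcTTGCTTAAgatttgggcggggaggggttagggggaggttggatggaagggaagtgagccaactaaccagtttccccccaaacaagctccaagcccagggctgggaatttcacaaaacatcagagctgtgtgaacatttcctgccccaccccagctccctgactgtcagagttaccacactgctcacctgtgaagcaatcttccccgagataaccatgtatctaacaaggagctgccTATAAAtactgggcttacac
The 4 motifs below were searched on both strands in the full promoter windows of 300 bases, which reach 50 bases past the start: TATAAA, the PU.1-type motif GAGGAAGT, the C/EBP-type motif TTGCNNAA and the STAT-type motif TTCNNNGAA. None overlaps another in the stretches shown. Both genes hold TATAAA, which 13.6% of the 32851 mouse promoters in the table hold. It begins at position -30 from the annotated start in S100a8 and at position 0 in S100a9. S100a8 also holds GAGGAAGT (on the other strand, as ACTTCCTC; 3.2% of promoters) and S100a9 holds TTGCNNAA (10.8%). RefSeq promoters matched 9 of the 10 markers by symbol. GAGGAAGT also occurred in Ly6c2, Pf4 and 1 of the F13a1 promoters, and TTGCNNAA in Pf4. No window of the 9 held TTCNNNGAA, which 8.3% of promoters hold. A match describes letters, not binding.

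Taken over all 10 markers, edgeR's quasi-likelihood test with Benjamini-Hochberg adjustment over 22294 genes called none between lesion and contralateral side at day 7 (0 of 10; 1.65% of all genes), day 14 (0 of 10; 3.88%) or day 30 (0 of 10; 1.16%). DESeq2 and limma-voom also called 0 at each day. At an unadjusted p under 0.05 there were 1 at day 7 (Ly6c2, lower), 0 at day 14 and 1 at day 30 (Ccr2, higher). The share of all genes at an unadjusted p is not given here, so neither these counts nor the later unadjusted ones can be read as an excess. The median log2 difference over the markers was -0.04, -0.05 and 0.11, beside -0.01, 0 and 0 over all genes tested. Groups did not overlap for 2 of 10 at day 7 (12.5% of all genes), 0 of 10 at day 14 (21.2%) and 1 of 10 at day 30 (18% of all genes). With 3 libraries against 3 an exact test cannot give a p below 0.1, which is why the spread was estimated over all groups.

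**Figure D3:**
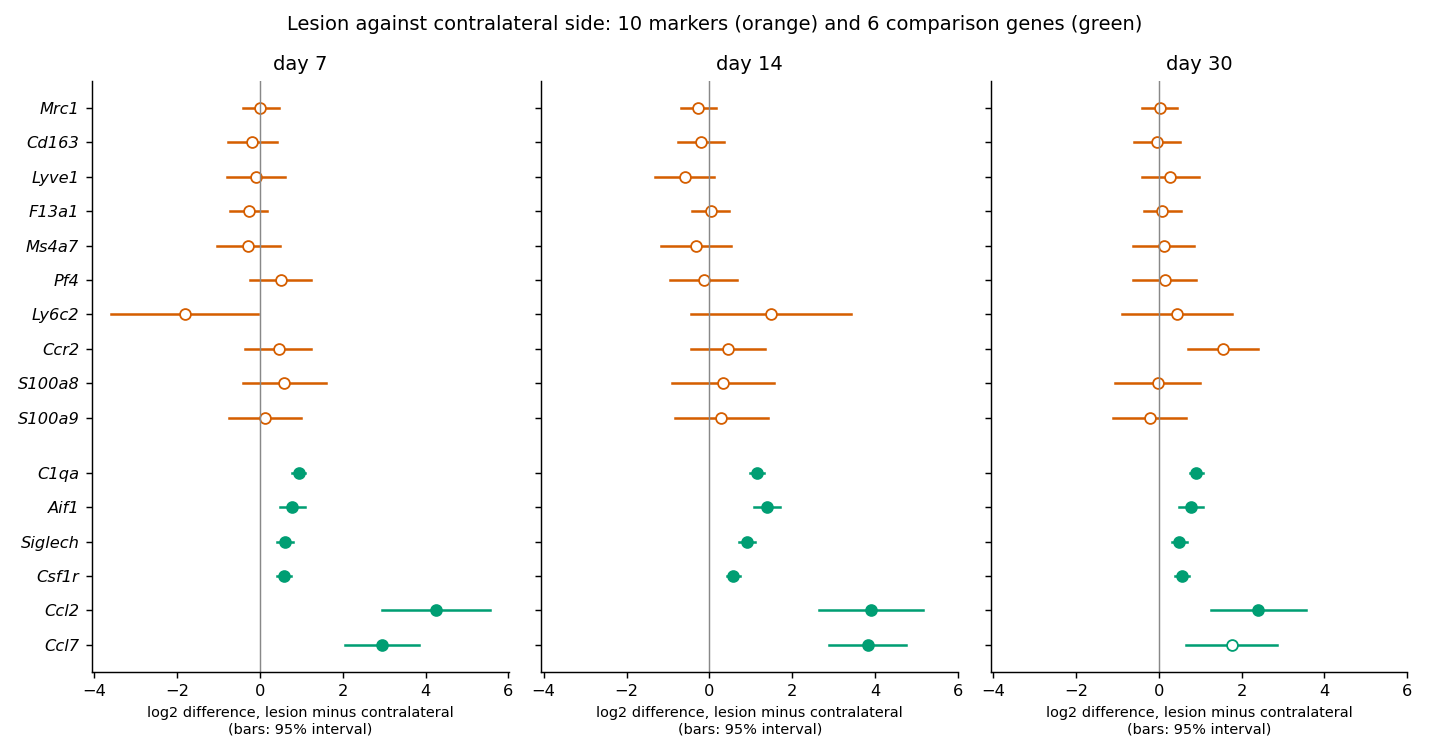
Log2 difference between lesion and contralateral side (horizontal axis, positive is higher on the lesion side) for the 10 markers (orange) and 6 comparison genes (green) at 3 days. Points are edgeR estimates, bars their 95% intervals, and filled points passed an adjusted p of 0.05. All 30 marker points are open, with Ccr2 at day 30 at 1.55, and all comparison points but Ccl7 at day 30 are filled. The comparison genes were chosen with their values known. C1qa, Aif1, Siglech and Ccl7 were taken from their lists for a small adjusted p between these same sides. Their filled points follow from that choice and are not a test against the markers.

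Against day 0, 1 of 10 markers was called on the lesion side at day 7 (Ccr2; 12.5% of all genes were called), 0 of 10 at day 14 (16.8%) and 2 of 10 at day 30 (Ccr2 and Ly6c2; 22.4%). The contralateral side had 0 of 10 at day 7 (10.5%), day 14 (15.8%) and day 30 (16.1%). At an unadjusted p under 0.05, again without the share of all genes, the lesion side had 2, 2 and 3 markers and the contralateral side 0, 1 and 1. These 6 comparisons share the 3 day 0 libraries. DESeq2 called 0, 0 and 2 on the lesion side and limma-voom 1, 0 and 2, and both called 0 on the contralateral side. The markers called, 1 of 10 and 2 of 10, are close to the share of all genes called. No marker's lesion effect differed between days (0 of 10 in each of 3 interaction contrasts with edgeR, DESeq2 and limma-voom; 0%, 0.0807% and 0.0269% of all genes for day 14 minus 7, 30 minus 14 and 30 minus 7). At an unadjusted p under 0.05 there were 1, 0 and 1, both Ly6c2.

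Microglial genes were read in the same libraries. Of 16 homeostatic microglia genes, 11, 10 and 9 rose on the lesion side at days 7, 14 and 30, with median log2 differences of 0.58, 0.64 and 0.46 and all 16 estimates positive at each day. C1qa, the A chain of complement C1q, went from 47.2 ± 3.21 to 90.6 ± 12.4 CPM at day 7 (0.94 ± 0.08), and by 1.15 ± 0.08 and 0.91 ± 0.08 at days 14 and 30 (edgeR adjusted p = 1.2e-08, 1.4e-10 and 2.6e-08). Csf1r, the receptor that microglia need for survival and the most abundant of the list, rose by 0.57 ± 0.08, 0.58 ± 0.08 and 0.56 ± 0.08 (adjusted p at most 0.00013). Whether these differences exceed those of the markers was not tested, and marker intervals reached up to 1.60 (S100a8 at day 7), 3.41 (Ly6c2 at day 14) and 2.40 (Ccr2 at day 30).

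Ligands of CCR2 rose on the lesion side. Ccl2 held 1.70 ± 0.544 CPM against 0.0832 ± 0.0574 contralaterally at day 7, 1.55 ± 0.577 against 0.0967 ± 0.0477 at day 14, and 1.11 ± 0.849 against 0.200 ± 0.125 at day 30, with 1 to 7 counts in each contralateral library. The log2 differences were 4.25 ± 0.63, 3.90 ± 0.61 and 2.40 ± 0.56 (edgeR adjusted p = 0.00013, 0.00019 and 0.026). Ccl7 differed by 2.94 ± 0.43 and 3.82 ± 0.45 at days 7 and 14 (adjusted p = 0.00012 and 3.4e-06), and by 1.76 ± 0.53 at day 30 (adjusted p = 0.15). Of the 15 tested genes in a list of chemokines, growth factors and adhesion molecules for monocyte entry, 4, 4 and 3 were higher and 0 lower at days 7, 14 and 30. At days 7 and 14 these were Ccl2, Ccl7, Csf1 and Csf1r, and at day 30 Ccl2, Csf1r and Ccl3, a chemokine.

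Other genes of the marked cell types followed the markers in part. Of 16 further border macrophage genes 1, 2 and 0 were higher and 0 lower at days 7, 14 and 30, with medians of 0.12, 0.04 and 0.15. The called ones were Ccl8, a chemokine, at days 7 and 14 (0.420 ± 0.170 against 0.0337 ± 0.0292 CPM and 0.753 ± 0.155 against 0.0498 ± 0.0521 CPM, from so few contralateral counts that no fold is given), and Ms4a6b at day 14 by 0.83 ± 0.24 on the log2 scale (edgeR adjusted p = 0.019, 0.00062 and 0.045). Maf, the most abundant of the list, differed by 0.19 ± 0.24, 0.42 ± 0.24 and 0.36 ± 0.24 and was not called. Cbr2, a carbonyl reductase that marks border macrophages, differed by -0.08 ± 0.26, -0.12 ± 0.26 and 0.08 ± 0.25.

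Of 15 further monocyte genes, 2 were higher and 0 lower at each day. They were Ccl9, a chemokine (1.03 ± 0.22, 0.92 ± 0.23 and 0.92 ± 0.23), and Fcgr4, an activating Fc receptor for immunoglobulin G (3.43 ± 0.67, 2.26 ± 0.56 and 2.43 ± 0.57). Contralateral Fcgr4 was near the limit of detection, at 0.133 ± 0.0747, 0.299 ± 0.181 and 0.298 ± 0.258 CPM, so the size of its differences is uncertain. Fn1, fibronectin and the most abundant of the list, was not called. Of 17 neutrophil genes, 10 could be tested, and 1 was higher and 1 lower at each day. Csf3r, the receptor for granulocyte colony-stimulating factor, rose by 0.79 ± 0.13, 1.03 ± 0.13 and 1.20 ± 0.13, and Mmp9, a matrix protease, fell by 0.66, 0.92 and 0.67 on the log2 scale (SE 0.16, 0.15 and 0.15). Csf3r already held 4.87 ± 0.163 CPM at day 0. Which cells carried the rises of Ccl9, Fcgr4 and Csf3r was not tested. Defining neutrophil genes were near the limit of detection: over all 21 libraries Ly6g had 16 counts, Cxcr2 14, Elane 10 and Stfa1 2, with 11, 12, 12 and 20 libraries at 0.

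Markers of other cells in the block were read the same way. Leptomeningeal fibroblasts (14 genes), endothelial and mural cells (13), choroid plexus (9), erythrocytes (6 tested), oligodendrocytes (6) and astrocytes (6) had 0 called between sides at each day with edgeR, the only tool run on these lists. At an unadjusted p under 0.05 and days 7, 14 and 30, there were 0, 2 and 0 endothelial and mural genes, 0, 2 and 2 astrocyte genes, 8, 0 and 0 choroid plexus genes, and 0 of the other lists. The 8 were higher at day 7, where lesion replicate 3 held the 4657 CPM given above. Lymphocyte genes had 1, 2 and 4 of 13 higher at days 7, 14 and 30, led by the chemokine gene Ccl5 and the T-cell receptor gene Trbc2. Platelet genes had 0, 1 and 0 of 6 higher (Gp1bb at day 14), neuronal genes 1, 1 and 0 of 8 higher, and motor neuron genes of the facial nucleus 0, 1 and 1 higher and 1, 4 and 2 lower of 8. Without day 7 lesion replicate 3 and day 0 replicate 3, an alternative added after the data had been seen, the day 30 lesion calls of Ccr2 and Ly6c2 against day 0 were kept (edgeR adjusted p = 0.011 and 0.043), and the day 7 call of Ccr2 was lost (0.10).

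Against day 0, where the calls of Ccr2 and Ly6c2 were made, genes of several other cell types changed too. Of 13 endothelial and mural genes 3, 8 and 8 were lower and 1, 1 and 2 higher on the lesion side at days 7, 14 and 30, and 3, 4 and 6 lower and 1, 2 and 1 higher on the contralateral side (edgeR). Kdr, the main VEGF receptor of endothelial cells, differed by -0.89 ± 0.19 and -1 ± 0.19 (log2) on the lesion side at days 14 and 30 (adjusted p = 0.0036 and 0.0012). Of 14 leptomeningeal genes 0, 3 and 2 were lower on the lesion side and 0, 2 and 3 on the contralateral side, with none higher. Col3a1, a fibrillar collagen, differed by -1.67 ± 0.28 at day 14, where Pf4 was low, and by -1.31 ± 0.27 at day 30 on the lesion side (adjusted p = 0.00059 and 0.0027). The list was split at day 30. Col1a1, Col1a2, Col3a1, Igf2 and Slc6a13 lay wholly below day 0 on the lesion side. Dcn, Lum and Ogn lay wholly above it, by 0.47 ± 0.21, 0.60 ± 0.27 and 0.62 ± 0.30, and were not called (edgeR adjusted p = 0.13, 0.13 and 0.16).

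On the lesion side 2, 3 and 6 of 13 lymphocyte genes were higher than at day 0, Ccl5 among them at each day (edgeR adjusted p = 0.023, 0.00035 and 1.7e-06), and none on the contralateral side. The further border macrophage genes had 1, 4 and 3 of 16 higher on the lesion side, the monocyte genes 2, 3 and 4 of 15, and neither list had a lower one. Platelet and erythrocyte genes had 0 of 6 called each on both sides with edgeR. At an unadjusted p under 0.05 there were 1, 2 and 2 platelet and 0, 3 and 2 erythrocyte genes on the lesion side, and 0, 1 and 0 and 0, 2 and 1 on the contralateral side. The part of these changes in the marker levels was not tested.

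Some of the border macrophage markers kept company with meningeal genes. For each marker with at least 1 CPM on average, the most similar of 13420 named genes at that level were taken by Pearson's r of log2 CPM over the 21 libraries, given here without a p since they are the best of many. Lyve1 was most like Ogn, a small proteoglycan of connective tissue (0.96), and like Cbr2 (0.90). F13a1 was most like Aldh1a2, Cbr2 and Zcchc9 (0.82 each). Pf4 was most like the matrix genes Ecm1 (0.83) and Bgn (0.82) and the growth factor gene Bmp4 (0.82). Cd163 was most like Pyroxd2 (0.77) and like Ctgf (0.71), and Mrc1 like Klf2 (0.73), Col4a5 (0.71) and Gtf2e1 (0.70). Ly6c2 stood apart from these, with Kif1c (0.87), Ppp2r5a (0.82) and Inca1 (0.81).

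The summed CPM of the 14 leptomeningeal genes was set beside each marker. With group means removed, r over the 21 libraries was 0.95 for Lyve1, 0.90 for F13a1, 0.76 for Cd163, 0.69 for Pf4, 0.65 for Mrc1, 0.62 for Ms4a7 and 0.52 for Ccr2, but 0.08 for S100a8, -0.17 for Ly6c2 and -0.25 for S100a9. These are descriptions, since the libraries of a number may share an animal. For a test, the sides of each number were averaged, which left 12 points, and 30 relations (10 markers with the meningeal, choroid plexus and microglia sums) were adjusted together. The points were permuted freely across days, so day, age and lane were not held fixed. A p from this test therefore also takes in any change with day that a marker and a sum share. Only Pf4 with the meningeal sum passed (Pearson's r = 0.88, permutation p = 0.00028, adjusted 0.0084; Spearman's rho = 0.85, permutation p = 0.00073, adjusted 0.022). It remained at r = 0.78 without the 2 points farthest from the median sum (day 14 number 1 and day 7 number 3). F13a1 (r = 0.78, adjusted p = 0.21) fell to 0.33 without them, and Lyve1 went from 0.59 to -0.35, so their relation over the 12 points rests on those 2. The meningeal sum ranged from 313 and 347 CPM in the day 14 number 1 libraries to 774 CPM in day 7 lesion replicate 3, and its part in the marker levels was not tested further.

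**Figure D4:**
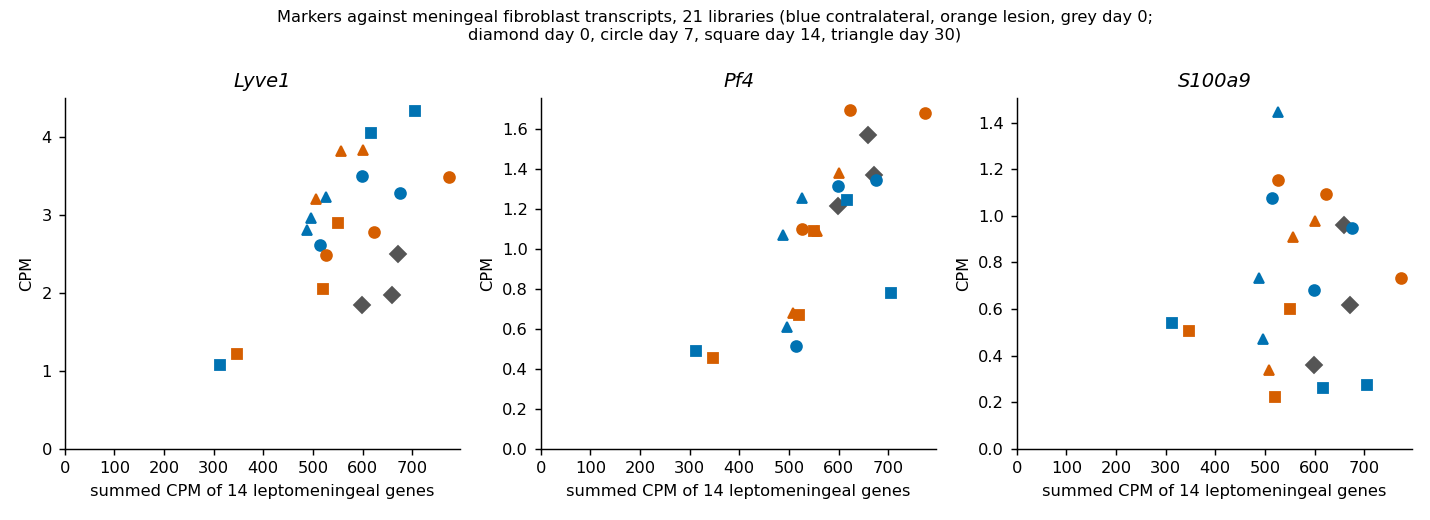
Level of Lyve1, Pf4 and S100a9 (vertical axes, CPM) against the summed CPM of 14 leptomeningeal fibroblast genes (horizontal axis) in the 21 libraries. Blue is contralateral, orange lesion, grey day 0, and diamonds, circles, squares and triangles are days 0, 7, 14 and 30. The day 14 number 1 libraries lie at 313 and 347 CPM with the lowest Lyve1, and S100a9 shows no such order.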

How the data were processed

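Bulk mRNA of the ventral pons was sequenced in 21 samples, 3 in each of 7 groups. Per the submitters' processing notes, base calls were made with CASAVA 1.8.2, and Subread, featureCounts, limma and the genome build GRCm38.p4 were used, and per the series' design text in the labels the Rsubread aligner ran at default settings. The deposited count table holds the authors' raw counts per gene for each sample, 45664 rows, none without a gene symbol. The deposited log2 table holds the authors' log2 CPM from voom, per the file headers and values. It served to check the assignment of columns (for 21 of 21 samples its column was closest to that sample's counts) and entered no test.

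Genes with a summed count of at least 30 over all libraries (above the 32nd percentile, 29) were tested, 22294 of 32815 with a count. edgeR 4.0.16 (R 4.3.3) fitted all 21 libraries with TMM scaling, 1 coefficient per group and robust quasi-likelihood F-tests, which are two-sided, with Benjamini-Hochberg adjustment over all genes tested and a threshold of 0.05. All groups entered the fit because 3 libraries against 3 give little information on the spread. The scripts were tested on simulated data. DESeq2 1.42.0, limma-voom (limma 3.58.1), DESeq2 size factors in edgeR, no filter, a filter of 1 CPM in 3 libraries, only the groups compared, a replicate block and leaving out each library were alternatives. Leaving out 2 libraries together and the difference averaged over the 3 days were added after the data had been seen.

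Lesion and contralateral libraries share replicate numbers. Same-numbered libraries had correlated deviations from their group means at day 7 (r = 0.27, 0.23 and 0.16) and day 30 (0.20, 0.22 and 0.19) but not in every number at day 14 (0.29, 0 and 0.17). The replicate block, the comparisons by number and the averages over sides nevertheless joined the sides of a number at all 3 days. This pairing rests on the shared numbers and these data, and the labels do not state it. The 10 markers and the other gene lists were chosen with earlier results of these data known. By rule, all markers are named, and from each other list the most abundant gene and up to 3 genes with the smallest adjusted p between the sides, and other genes named were chosen after their values were seen. For likeness the 3 most similar genes of at least 1 CPM were taken, and some items that the rules select are not reported here. Gene positions and shared 50-base stretches came from GENCODE (GRCm38), promoters from RefSeq (GRCm38.p6).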

Additional observations from a re-analysis of the deposited data

How the results depend on the processing

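Most values kept their side of the threshold: of the single-gene alternatives 1982 gave the same call, 32 lost a call, 7 gained one and 0 reversed. A reversal was counted only where a call was made. Values that were not called could change sign and still count as the same. S100a8 between sides at day 30, for example, ranged from -0.43 to 0.91 (log2) over its alternatives. Every gained or lost call belonged to Ccr2, Ly6c2, Lyve1 or Pf4, and the cause was not tested. Between lesion and contralateral side at day 30 the count of markers higher went from 0 to 1 (Ccr2) with no filter and with only the groups compared. Against day 0 on the day 7 lesion side it went from 1 to 0 with DESeq2, with the 1 CPM filter (which left 7 markers, without Ccr2), with only the groups compared and without the 2 outlying libraries, and it was 0 whichever of the 6 libraries was left out. On the day 14 lesion side the count lower went from 0 to 1 (Pf4) with no filter, and between 0 and 1 with libraries left out (1 without lesion replicate 3). On the day 30 lesion side the count higher went from 2 to 1 with no filter and with the 1 CPM filter, and between 1 and 2 with libraries left out (1 without day 0 replicate 1 or 2 or any lesion library). At day 14 the counts of markers lower between sides and of those higher on the contralateral side against day 0 lay between 0 and 1, both 1 (Lyve1) without contralateral replicate 1. The averaged difference had 1 marker higher and 0 with DESeq2, with the 1 CPM filter and without the 2 outlying libraries, and 0 to 1 with libraries left out. With the replicate block no call of a marker changed: Ccr2 at day 30 was 1.57 ± 0.41 with an adjusted p of 0.058. Over all genes the count called between sides at day 14 went from 866 to 1898 with the replicate block and to 435 with only the groups compared, and lay between 432 (without contralateral replicate 2) and 1983 (without lesion replicate 1) with libraries left out. At day 30 it went from 259 to 569 with only the groups compared and was lowest, 158, without contralateral replicate 3. Depth limits Ccr2, S100a8 and Ms4a7 most, which had as few as 2, 2 and 3 counts in a library.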

Other observations

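Ly6c2 differed widely between the lesion and contralateral libraries of some replicate numbers. Number 1 at day 7 held 0.577 CPM on the lesion side and 3.90 CPM on the contralateral side (6.76-fold), and number 2 at day 14 held 2.16 and 0.312 CPM (6.93-fold) in the opposite direction. At day 30 numbers 2 and 3 were close on both sides (1.17-fold and 1.02-fold), and number 1 was 4.20-fold higher on the lesion side. Wdfy1, a gene chosen after its values were seen because it varies between numbers, ran from 15.6 to 70.7 CPM over the operated libraries, yet its sides never differed by more than 1.05-fold within a number. The labels do not say whether the sides of a number come from 1 animal.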
